A study of Mus musculus with 8 samples.

Results

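The genes described here are 42 mouse genes of the interferon response and of antigen presentation by MHC class I molecules, followed across W20-expressing and EGFP-expressing N31 cells. They were taken as a list of symbols and found on the array by matching each probe's accession to RefSeq. The list is by function, and was drawn up with earlier results of these data known. Of the 42 genes, 40 had a probe, 60 probes in all, among 18842 gene symbols matched on the array. No probe was matched to Mx1 or Mx2, which are not analysed here. Of the 40, 36 were tested, because a probe of theirs was well above background on both arrays of some group, for 34 of them on all 8 arrays. The used probe of Rsad2 was so on 7 arrays and that of Psmb8 on 4. The probes of Oas1a, Oas2, Oasl1 and Tap1 were well above background on 0 of 8 arrays.

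N31 is a line of neural progenitor cells (NPC) made from mouse embryonic stem cells, and each group was measured on 2 single-colour Agilent whole-genome arrays. The first group expressed W20 and was measured 72 h after reprogramming was started, and the second expressed EGFP, a fluorescent control protein, at the same 72 h. The third was W20-expressing NPC and the fourth EGFP-expressing NPC, both before reprogramming. The series is titled for bacterial proteins that hasten reprogramming, and the question put in its design text is how forced W20 alters gene expression. All cells had EGF and bFGF at 10 ng/ml. The 72 h cells had 40 ng/ml Dox throughout, first in NPC medium (48 h), then in GMEM (24 h) with 10% KSR, LIF at 1000 U/ml, ACTH, sodium pyruvate, nonessential amino acids and 2-mercaptoethanol, so stage, Dox and medium changed together. All groups come from the same line, the labels name neither how W20 and EGFP were delivered nor which factors Dox switched on, and nothing says that the 2 arrays of a group were separate cultures. The p-values therefore cover no more than array-to-array spread, which may be technical.

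Interferons are secreted proteins that act through surface receptors and JAK kinases to activate STAT transcription factors. Type I interferons lead to a complex with STAT2 and IRF9 that binds the interferon-stimulated response element (ISRE), and interferon gamma acts through the gamma-activated sequence (GAS). The induced genes include sensors of viral RNA, antiviral effectors, GTPases that act on vacuoles holding pathogens, and the machinery that cuts proteins into peptides and loads them on MHC class I molecules. IRF1 is itself induced and drives many of the antigen presentation genes. Embryonic stem cells are known for a weak interferon response, and neural progenitors for low surface MHC class I.

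All 4 NPC arrays lay on 1 slide and all 4 arrays of 72 h on the other, so stage and slide cannot be told apart. EGFP samples held positions 1 and 2 and W20 samples positions 3 and 4 of both slides, so W20 and position cannot be told apart either. The share of spots well above background ran from 57.0% to 62.4% over the arrays. Over probes well above background on all 8 arrays, replicates correlated at 0.9984 or more. Over all genes tested, the median SE of a difference between W20 and EGFP in NPC was 0.0491, so small differences could pass the test. At least 1 probe was well above background for 9 of 10 neural progenitor markers, Nes, Sox2 and Pax6 among them, and Olig2 was on 0 of 8 arrays. Of the 9, Fabp7 and Sox1 were so on 5 of 8 arrays.

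The ISRE core was searched as GAAA and GAAA parted by any 2 bases, and the GAS core as TTCNNNGAA, on both strands, in RefSeq promoter entries of assembly GRCm38.p6 that run from 250 bases before to 50 bases after a start site. Of the 42 genes 34 had an entry. The ISRE core was present for 16 of the 34 genes, against 3.99% of all 27025 genes with an entry. The GAS core was present for 9 of the 34, against 9.55% of all genes. The 2 patterns can overlap, and a match is a description of letters, not of a bound site. The 160 bases before the start site are shown for 6 genes that the results return to, 5 that hold a core and Psmb9, which holds neither in its entry. Capitals mark the cores, and each sequence reads 5′ to 3′ on the gene's own strand.
Irf1, chr11:53769854-53770013 (plus strand): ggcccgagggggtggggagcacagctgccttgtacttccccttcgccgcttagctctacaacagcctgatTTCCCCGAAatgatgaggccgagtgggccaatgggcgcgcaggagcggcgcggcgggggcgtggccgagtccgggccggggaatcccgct
Gbp2, chr3:142620503-142620662 (plus strand): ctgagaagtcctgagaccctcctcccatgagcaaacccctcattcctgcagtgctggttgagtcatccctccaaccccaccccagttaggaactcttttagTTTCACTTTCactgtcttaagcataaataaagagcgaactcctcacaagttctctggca
Irgm1, chr11:48871421-48871580 (minus strand): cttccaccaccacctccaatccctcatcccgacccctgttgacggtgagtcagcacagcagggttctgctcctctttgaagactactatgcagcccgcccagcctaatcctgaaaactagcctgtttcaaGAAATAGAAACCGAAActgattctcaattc
Igtp, chr11:58199396-58199555 (plus strand): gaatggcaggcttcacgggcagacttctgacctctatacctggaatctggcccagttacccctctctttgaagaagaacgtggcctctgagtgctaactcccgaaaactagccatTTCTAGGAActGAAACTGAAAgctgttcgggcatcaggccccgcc
Rsad2, chr12:26456453-26456612 (minus strand): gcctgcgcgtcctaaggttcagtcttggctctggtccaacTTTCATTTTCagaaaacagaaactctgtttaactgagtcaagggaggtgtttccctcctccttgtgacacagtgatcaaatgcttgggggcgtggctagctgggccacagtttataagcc
Psmb9, chr17:34187331-34187490 (minus strand): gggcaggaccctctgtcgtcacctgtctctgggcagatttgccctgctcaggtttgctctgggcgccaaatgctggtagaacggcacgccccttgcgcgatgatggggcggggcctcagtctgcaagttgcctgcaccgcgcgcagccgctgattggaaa
The first base of the GAS core lay 90 bases before the start site of Irf1. The ISRE core of Gbp2 lay 59 bases before it and that of Rsad2 120 bases before it, both on the opposite strand. Irgm1 held 2 overlapping ISRE cores that began 30 and 24 bases before its start site. Igtp held a GAS core 45 and an ISRE core 34 bases before its start site.

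W20 cells had lower levels than EGFP cells for most of the measured genes, at both stages. At 72 h, 27 of the 36 tested genes fell, 4 rose and 5 did not pass, where 24.3% of all 13624 genes tested fell and 28.5% rose (limma, Benjamini-Hochberg adjusted p under 0.05 over all genes). Before reprogramming, 24 of the 36 fell and 2 rose in NPC and 10 did not pass, where 23.7% of all genes fell and 31.8% rose. The median difference, W20 minus EGFP, over the 36 genes was -0.33 on the log2 scale at 72 h and -0.22 in NPC, beside 0.03 and 0.04 over all genes. The 2 comparisons share no array, and 21 of the 36 genes fell in both, where 13.5% of all genes did. Rsad2 and Samhd1 rose in both, where 17.8% of all genes did. Among genes that differed by at least 0.5 log2 units, 14 fell and 1 rose at 72 h (8.51% and 4.38% of all genes), and 11 fell and 1 rose in NPC (8.43% and 5.34%). The 1 at 72 h was Psmb8, whose probes went opposite ways.

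**Figure D1:**
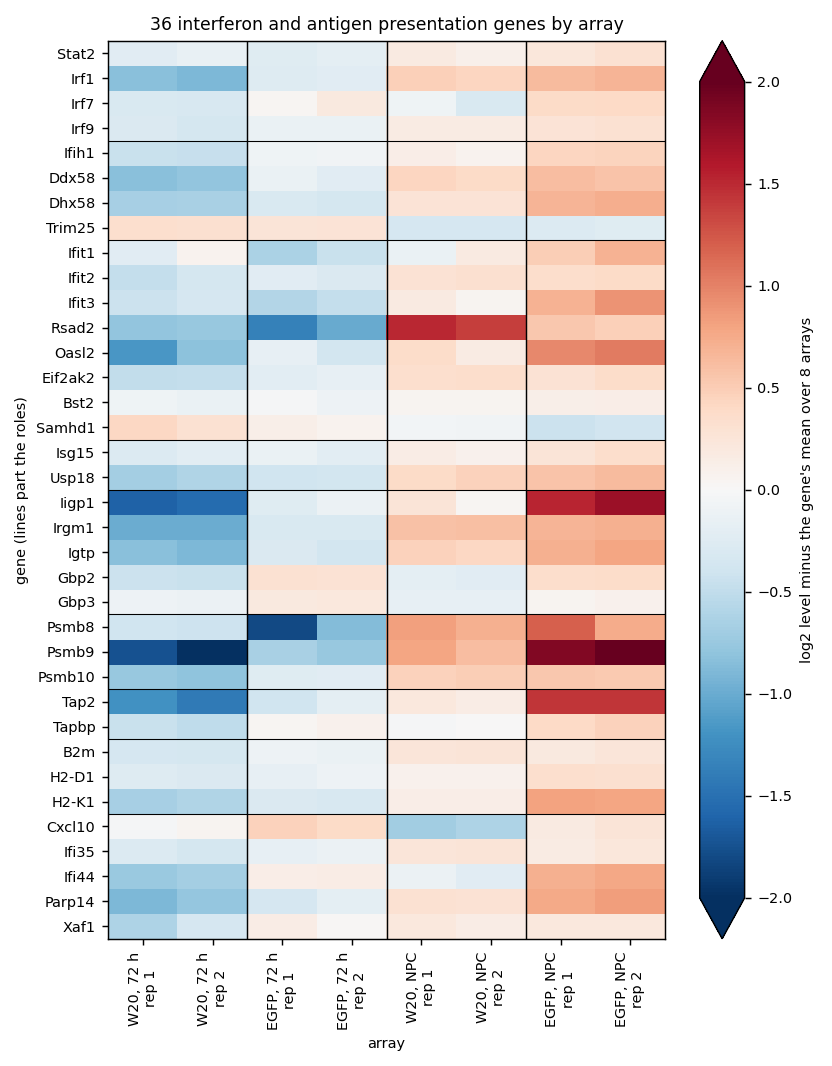
Level of the 36 tested genes on each of the 8 arrays, as log2 signal minus the gene's own mean over the arrays (red higher, blue lower), with columns from W20 at 72 h to EGFP NPC and lines parting the gene roles. The 2 arrays of a group have like colours in most rows, and most rows are bluest in W20 cells at 72 h and reddest in EGFP NPC.

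**Figure D2:**
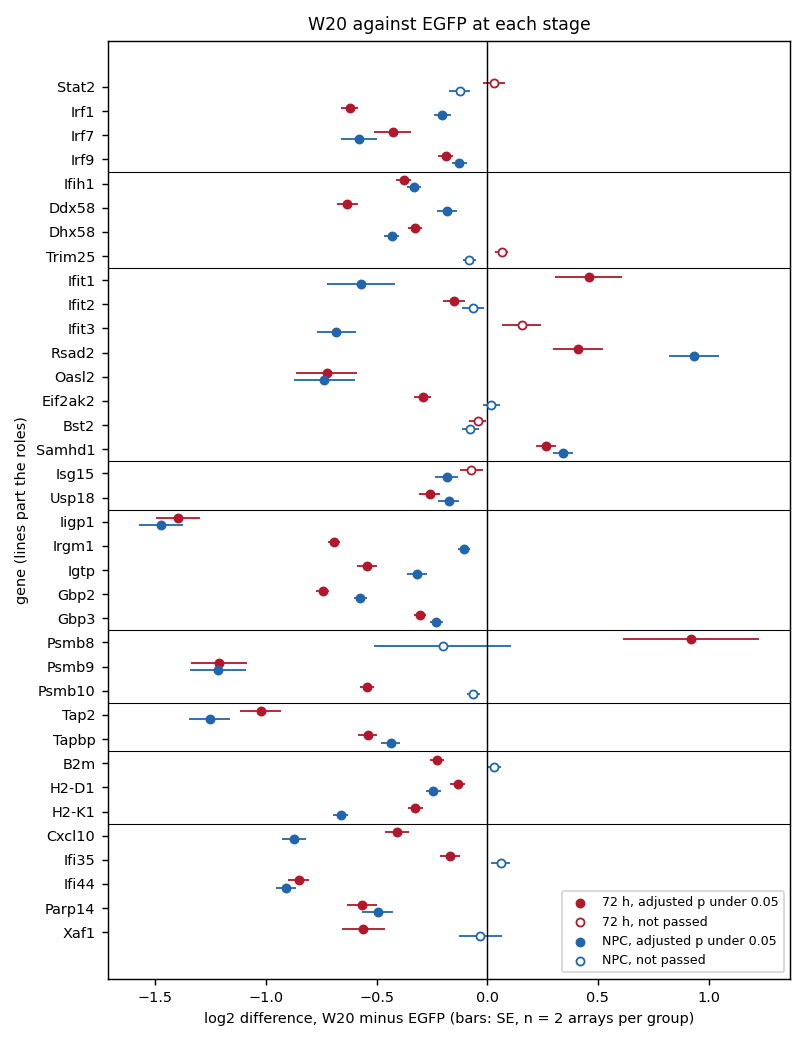
Difference of W20 minus EGFP on the log2 scale with its standard error (2 arrays per group) for each tested gene, at 72 h (red) and in NPC (blue), with filled points where the adjusted p was under 0.05. Most points lie left of 0 at both stages, with Iigp1, Psmb9 and Tap2 farthest left and Rsad2 and Samhd1 right of 0 at both.

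Levels below are log2 signals relative to the array's 75th percentile, which is 0, and compare samples for 1 probe, not genes with each other. Differences are log2 differences with their standard error (SE), from 2 arrays per group.

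Transcription factors of the response were lower with W20 in most cases. Irf1, which drives many antigen presentation genes, had 3.52 and 3.45 in W20 cells at 72 h, against 4.10 and 4.12 in EGFP cells at 72 h, and 4.84 and 4.79 in W20 NPC, against 4.998 and 5.04 in EGFP NPC. The groups did not overlap at either stage. Irf1 fell by 0.62 ± 0.0389 (1.54-fold, adjusted p = 0.000161) at 72 h and fell by 0.20 ± 0.0389 (1.15-fold, adjusted p = 0.00661) in NPC, and its second probe fell at both stages too. The NPC call of Irf1 ended when arrays were scaled on their median (adjusted p = 0.0838), and its size was -0.33 with quantile scaling. Irf7, the amplifier of type I interferon production, had -3.48 and -3.50 in W20 cells at 72 h, against -3.14 and -2.98 in EGFP cells at 72 h, and -3.27 and -3.48 in W20 NPC, against -2.80 and -2.79 in EGFP NPC. Both W20 arrays lay below both EGFP arrays at each stage, and Irf7 fell by 0.43 ± 0.0821 (1.35-fold, adjusted p = 0.00719) at 72 h and fell by 0.58 ± 0.0821 (1.49-fold, adjusted p = 0.00215) in NPC. The call at 72 h ended with the other background correction, normexp (-0.12, adjusted p = 0.219). Irf9, the DNA-binding part of the complex on the ISRE, fell by 0.19 ± 0.0328 (1.14-fold, adjusted p = 0.00506) at 72 h and fell by 0.13 ± 0.0328 (1.09-fold, adjusted p = 0.0201) in NPC. The call of Irf9 ended under 2 of 17 alternatives at 72 h (adjusted p up to 0.135) and 7 of 19 in NPC (adjusted p up to 0.538), and its dimmer second probe passed at neither stage (adjusted p = 0.256 and 0.757). Stat2, which joins it in that complex, did not pass at 72 h (0.03 ± 0.0484, adjusted p = 0.626) or in NPC (-0.13 ± 0.0484, adjusted p = 0.0723).

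Of the RNA sensors and their activator, 3 of 4 fell at both stages, where 13.5% of all genes did. Ddx58, which codes for the viral RNA sensor RIG-I, had -0.96 and -0.91 in W20 cells at 72 h, against -0.25 and -0.35 in EGFP cells at 72 h, and 0.30 and 0.27 in W20 NPC, against 0.49 and 0.45 in EGFP NPC. W20 arrays lay below EGFP arrays at both stages, by more at 72 h. Ddx58 fell by 0.63 ± 0.0463 (1.55-fold, adjusted p = 0.000261) at 72 h and fell by 0.18 ± 0.0463 (1.13-fold, adjusted p = 0.0187) in NPC, and all 4 of its kept probes had negative differences at both stages. Its NPC call ended under 7 alternatives, such as median scaling, with adjusted p up to 0.154, and its NPC difference was -0.36 with the mean of its probes. Ifih1, which codes for the sensor MDA5, fell by 0.38 ± 0.0323 (1.3-fold, adjusted p = 0.000427) at 72 h and fell by 0.33 ± 0.0323 (1.26-fold, adjusted p = 0.000593) in NPC. Dhx58, their relative LGP2, fell by 0.33 ± 0.0329 (1.25-fold, adjusted p = 0.000713) at 72 h and fell by 0.43 ± 0.0329 (1.35-fold, adjusted p = 0.000281) in NPC. Trim25, the ubiquitin ligase that activates RIG-I, had 3.07 and 3.05 in W20 cells at 72 h, against 2.99 and 3.01 in EGFP cells at 72 h, and 2.39 and 2.39 in W20 NPC, against 2.45 and 2.49 in EGFP NPC. Its W20 arrays were the higher at 72 h and the lower in NPC, but it did not pass at 72 h (0.07 ± 0.0296, adjusted p = 0.115) or in NPC (-0.08 ± 0.0296, adjusted p = 0.0612). The second Trim25 probe went the other way in NPC, with a difference of 0.22. In a fit of every probe it passed neither in NPC (adjusted p = 0.0986) nor at 72 h (0.07, adjusted p = 0.549).

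Of the 13 antiviral effectors listed, 8 were tested, of which 3 rose and 3 fell at 72 h and 2 rose and 3 fell in NPC, shares near the 28.5% and 24.3% of all genes that did so at 72 h and the 31.8% and 23.7% in NPC. Rsad2, which codes for viperin, an enzyme that makes a chain-terminating nucleotide, had -5.03 and -5.00 in W20 cells at 72 h, against -5.60 and -5.25 in EGFP cells at 72 h, and -2.73 and -2.85 in W20 NPC, against -3.69 and -3.76 in EGFP NPC. Levels were higher on both W20 arrays at each stage, and those at 72 h were near the floor of the measurement. Rsad2 rose by 0.94 ± 0.114 (1.91-fold, adjusted p = 0.00123) in NPC and rose by 0.41 ± 0.114 (1.33-fold, adjusted p = 0.0263) at 72 h, and the 72 h call ended without either W20 array of 72 h or with the 4 arrays of 72 h alone (adjusted p up to 0.0962). The rises were smaller with normexp, at 0.46 in NPC and 0.24 at 72 h, and the 72 h rise was 0.24 without EGFP 72 h replicate 1 too. Samhd1, which breaks down deoxynucleotides, rose by 0.26 ± 0.0454 (1.2-fold, adjusted p = 0.00483) at 72 h and rose by 0.34 ± 0.0454 (1.27-fold, adjusted p = 0.00171) in NPC.

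Of the Ifit genes, whose products bind viral RNA, Ifit1 had -4.44 and -4.15 in W20 cells at 72 h, against -4.85 and -4.66 in EGFP cells at 72 h, and -4.35 and -4.03 in W20 NPC, against -3.72 and -3.53 in EGFP NPC. The groups did not overlap, and the order turned between the stages. Ifit1 rose by 0.46 ± 0.153 (1.37-fold, adjusted p = 0.0487) at 72 h and fell by 0.57 ± 0.153 (1.48-fold, adjusted p = 0.0227) in NPC. Its 72 h call ended under 10 of 17 alternatives (adjusted p up to 0.203). Its NPC call ended when replicate 2 of EGFP or replicate 1 of W20 was left out (adjusted p up to 0.115). Ifit3 had -3.03 and -2.93 in W20 cells at 72 h, against -3.19 and -3.08 in EGFP cells at 72 h, and -2.41 and -2.55 in W20 NPC, against -1.90 and -1.69 in EGFP NPC. It fell by 0.68 ± 0.0881 (1.6-fold, adjusted p = 0.00154) in NPC, and at 72 h the difference of 0.16 ± 0.0881 did not pass (adjusted p = 0.188). Ifit2 fell by 0.15 ± 0.0482 (1.11-fold, adjusted p = 0.0422) at 72 h, a call that ended under 14 of 17 alternatives (adjusted p up to 0.18), and its NPC difference of -0.07 ± 0.0482 did not pass (adjusted p = 0.296).

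Oasl2, an oligoadenylate synthetase-like protein, had -1.89 and -1.54 in W20 cells at 72 h, against -0.89 and -1.09 in EGFP cells at 72 h, and -0.35 and -0.56 in W20 NPC, against 0.24 and 0.32 in EGFP NPC. Its groups did not overlap at either stage, and it fell by 0.73 ± 0.137 (1.65-fold, adjusted p = 0.00685) at 72 h and fell by 0.74 ± 0.137 (1.67-fold, adjusted p = 0.00595) in NPC. Eif2ak2, the kinase PKR that halts translation on double-stranded RNA, had 0.91 and 0.94 in W20 cells at 72 h, against 1.19 and 1.25 in EGFP cells at 72 h, and 1.75 and 1.76 in W20 NPC, against 1.70 and 1.77 in EGFP NPC. The NPC groups overlapped, and Eif2ak2 fell by 0.29 ± 0.0386 (1.22-fold, adjusted p = 0.00188) at 72 h. Bst2, the tetherin that holds budding virions, passed at neither stage (adjusted p = 0.38 at 72 h and 0.144 in NPC). Isg15, the ubiquitin-like modifier, fell by 0.18 ± 0.0518 (1.14-fold, adjusted p = 0.0265) in NPC, a call that ended under 9 of 19 alternatives (adjusted p up to 0.129), and did not pass at 72 h (-0.07 ± 0.0518, adjusted p = 0.281). Usp18, which removes ISG15 and damps receptor signalling, fell by 0.26 ± 0.0477 (1.2-fold, adjusted p = 0.00617) at 72 h and fell by 0.17 ± 0.0477 (1.13-fold, adjusted p = 0.0246) in NPC. The NPC call of Usp18 ended under 6 of 19 alternatives (adjusted p up to 0.121), and its 72 h call with the other background correction (adjusted p = 0.113).

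All 5 interferon-induced GTPases fell at both stages, where 13.5% of all genes did. Iigp1, an immunity-related GTPase that attacks vacuoles of intracellular pathogens, had -2.98 and -2.90 in W20 cells at 72 h, against -1.60 and -1.48 in EGFP cells at 72 h, and -1.10 and -1.33 in W20 NPC, against 0.16 and 0.36 in EGFP NPC. The groups stood well apart at both stages. Iigp1 fell by 1.40 ± 0.1 (2.64-fold, adjusted p = 0.000245) at 72 h and fell by 1.47 ± 0.1 (2.78-fold, adjusted p = 0.000202) in NPC. Irgm1, a regulator of such GTPases, had 0.18 and 0.17 in W20 cells at 72 h, against 0.87 and 0.87 in EGFP cells at 72 h, and 1.75 and 1.77 in W20 NPC, against 1.85 and 1.87 in EGFP NPC. The arrays of each group lay close together, and no groups of 1 stage overlapped. Irgm1 fell by 0.69 ± 0.0276 (1.62-fold, adjusted p = 4.88e-05) at 72 h and fell by 0.10 ± 0.0276 (1.07-fold, adjusted p = 0.0218) in NPC, and the NPC call ended under 9 of 19 alternatives (adjusted p up to 0.407). Igtp, another regulator of the family, had 0.25 and 0.20 in W20 cells at 72 h, against 0.81 and 0.73 in EGFP cells at 72 h, and 1.55 and 1.52 in W20 NPC, against 1.81 and 1.89 in EGFP NPC. It fell by 0.54 ± 0.0454 (1.46-fold, adjusted p = 0.000405) at 72 h and fell by 0.32 ± 0.0454 (1.25-fold, adjusted p = 0.00217) in NPC. Gbp2, a guanylate-binding protein, had 2.61 and 2.59 in W20 cells at 72 h, against 3.35 and 3.33 in EGFP cells at 72 h, and 2.85 and 2.81 in W20 NPC, against 3.39 and 3.41 in EGFP NPC. W20 arrays lay below EGFP arrays, by more at 72 h, and Gbp2 fell by 0.74 ± 0.0296 (1.67-fold, adjusted p = 4.88e-05) at 72 h and fell by 0.57 ± 0.0296 (1.49-fold, adjusted p = 0.000108) in NPC. Gbp3 fell by 0.31 ± 0.0274 (1.24-fold, adjusted p = 0.000494) at 72 h and fell by 0.23 ± 0.0274 (1.17-fold, adjusted p = 0.00115) in NPC.

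Genes that make and load MHC class I peptides were among those with the largest differences. Psmb9, Tap1, Psmb8 and Tap2 lie side by side on chromosome 17 of GRCm38.p6, between base 34182030 and base 34216321. Psmb9, a catalytic subunit that replaces a constitutive one in the immunoproteasome, had -4.43 and -4.77 in W20 cells at 72 h, against -3.34 and -3.44 in EGFP cells at 72 h, and -1.90 and -2.07 in W20 NPC, against -0.84 and -0.70 in EGFP NPC. W20 arrays were lower at both stages, and Psmb9 fell by 1.21 ± 0.126 (2.32-fold, adjusted p = 0.000807) at 72 h and fell by 1.22 ± 0.126 (2.32-fold, adjusted p = 0.000718) in NPC. With normexp the 72 h difference of Psmb9 was -0.46 (adjusted p = 0.000787). Tap2, which with Tap1 forms the pump that moves peptides into the endoplasmic reticulum, had -4.36 and -4.56 in W20 cells at 72 h, against -3.54 and -3.33 in EGFP cells at 72 h, and -2.93 and -2.99 in W20 NPC, against -1.71 and -1.71 in EGFP NPC. Neither stage showed overlap, and Tap2 fell by 1.02 ± 0.0926 (2.03-fold, adjusted p = 0.00051) at 72 h and fell by 1.25 ± 0.0926 (2.39-fold, adjusted p = 0.000256) in NPC. With normexp the 72 h difference of Tap2 was -0.33 (adjusted p = 0.00436). Psmb10, the third immunoproteasome subunit, had 4.78 and 4.74 in W20 cells at 72 h, against 5.30 and 5.32 in EGFP cells at 72 h, and 6.002 and 6.03 in W20 NPC, against 6.09 and 6.07 in EGFP NPC. It fell by 0.54 ± 0.0311 (1.46-fold, adjusted p = 0.000127) at 72 h, and the NPC difference of -0.06 ± 0.0311 did not pass (adjusted p = 0.138). Tapbp, the tapasin that bridges pump and MHC molecule, had 4.83 and 4.76 in W20 cells at 72 h, against 5.31 and 5.36 in EGFP cells at 72 h, and 5.25 and 5.28 in W20 NPC, against 5.66 and 5.74 in EGFP NPC. It fell by 0.54 ± 0.0428 (1.45-fold, adjusted p = 0.000343) at 72 h and fell by 0.44 ± 0.0428 (1.35-fold, adjusted p = 0.000601) in NPC, and its second probe fell at both stages too.

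Psmb8, the other immunoproteasome subunit, has no settled direction. Its used probe had -5.59 and -5.61 in W20 cells at 72 h, against -6.99 and -6.05 in EGFP cells at 72 h, and -4.36 and -4.48 in W20 NPC, against -3.99 and -4.44 in EGFP NPC. At 72 h that probe was not well above background in either group, so no fold is given, although its difference of 0.92 ± 0.308 passed (adjusted p = 0.0489). The second Psmb8 probe had -6.60 and -7.17 in W20 cells at 72 h, against -5.19 and -5.30 in EGFP cells at 72 h, and fell by 1.64 (adjusted p = 0.00455 in a fit of every probe).

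Of the 3 genes of MHC class I molecules, 3 fell at 72 h and 2 in NPC, where 24.3% and 23.7% of all genes fell. H2-K1, a classical heavy chain, had 2.13 and 2.19 in W20 cells at 72 h, against 2.50 and 2.47 in EGFP cells at 72 h, and 2.93 and 2.92 in W20 NPC, against 3.60 and 3.58 in EGFP NPC. W20 arrays were lower at both stages, and H2-K1 fell by 0.32 ± 0.0335 (1.25-fold, adjusted p = 0.000777) at 72 h and fell by 0.66 ± 0.0335 (1.58-fold, adjusted p = 0.000104) in NPC. H2-D1, the other classical heavy chain, fell by 0.13 ± 0.0328 (1.1-fold, adjusted p = 0.0171) at 72 h and fell by 0.24 ± 0.0328 (1.18-fold, adjusted p = 0.00179) in NPC. The 72 h call of H2-D1 ended under 6 of 17 alternatives (adjusted p up to 0.115). In a fit of every probe, its second probe did not pass at 72 h (-0.06, adjusted p = 0.227) and fell in NPC (-0.35, adjusted p = 0.00132). The difference of the W20 effects passed for that probe (0.29, adjusted p = 0.0171). B2m, the light chain shared by all class I molecules, had 4.33 and 4.31 in W20 cells at 72 h, against 4.57 and 4.53 in EGFP cells at 72 h, and 4.91 and 4.93 in W20 NPC, against 4.87 and 4.91 in EGFP NPC. It fell by 0.23 ± 0.0318 (1.17-fold, adjusted p = 0.00226) at 72 h, while in NPC the arrays overlapped and the difference of 0.03 ± 0.0318 did not pass (adjusted p = 0.436). Heavy-chain genes are near-identical in parts, so probes may read several of them.

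**Figure D3:**
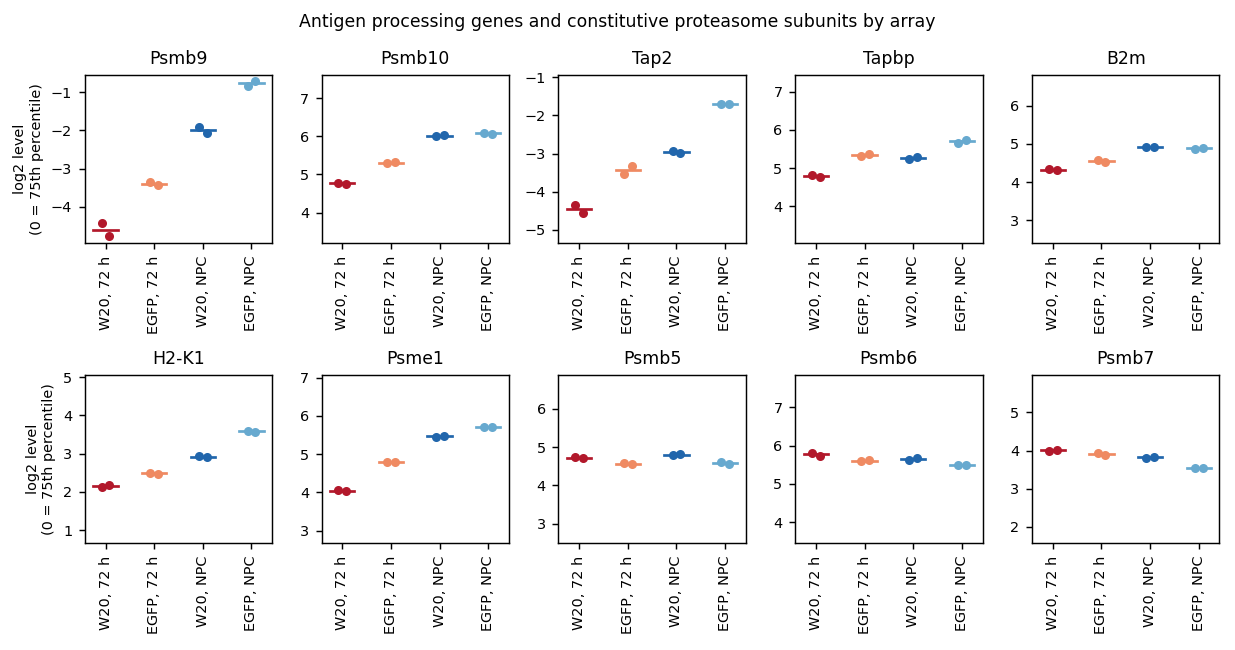
Level of antigen processing genes and of the constitutive proteasome subunits Psmb5, Psmb6 and Psmb7 on each array (points, log2 signal relative to the array's 75th percentile) with the group mean (lines), each panel spanning the same number of log2 units. Psmb9 and Tap2 are lower with W20 at both stages and lower at 72 h, and Psmb5 to Psmb7 stay within a narrow band.

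Of the remaining induced genes, Cxcl10, a chemokine that draws T cells, had 0.32 and 0.41 in W20 cells at 72 h, against 0.81 and 0.74 in EGFP cells at 72 h, and -0.35 and -0.27 in W20 NPC, against 0.52 and 0.60 in EGFP NPC. W20 arrays were lower at both stages. Cxcl10 fell by 0.41 ± 0.0536 (1.33-fold, adjusted p = 0.00184) at 72 h and fell by 0.87 ± 0.0536 (1.83-fold, adjusted p = 0.000162) in NPC. Ifi44, an interferon-induced protein, had -1.76 and -1.70 in W20 cells at 72 h, against -0.88 and -0.87 in EGFP cells at 72 h, and -1.13 and -1.24 in W20 NPC, against -0.30 and -0.25 in EGFP NPC. Both stages showed W20 arrays well below EGFP arrays, and Ifi44 fell by 0.85 ± 0.0469 (1.81-fold, adjusted p = 0.000115) at 72 h and fell by 0.91 ± 0.0469 (1.88-fold, adjusted p = 0.000108) in NPC. Parp14, a mono-ADP-ribosyl transferase, had 0.30 and 0.43 in W20 cells at 72 h, against 0.85 and 1.00 in EGFP cells at 72 h, and 1.51 and 1.49 in W20 NPC, against 1.96 and 2.03 in EGFP NPC. It fell by 0.57 ± 0.0684 (1.48-fold, adjusted p = 0.00136) at 72 h and fell by 0.50 ± 0.0684 (1.41-fold, adjusted p = 0.00194) in NPC. Xaf1, a pro-apoptotic protein, had -2.35 and -2.07 in W20 cells at 72 h, against -1.58 and -1.71 in EGFP cells at 72 h, and -1.51 and -1.59 in W20 NPC, against -1.52 and -1.52 in EGFP NPC. It fell by 0.56 ± 0.0964 (1.48-fold, adjusted p = 0.00483) at 72 h (-0.36 with normexp), and in NPC the difference of -0.03 ± 0.0964 did not pass (adjusted p = 0.806). Ifi35 had 2.08 and 2.00 in W20 cells at 72 h, against 2.19 and 2.22 in EGFP cells at 72 h, and 2.59 and 2.61 in W20 NPC, against 2.51 and 2.58 in EGFP NPC. The W20 arrays were the lower at 72 h and the higher in NPC. Ifi35 fell by 0.17 ± 0.0437 (1.12-fold, adjusted p = 0.0209) at 72 h, a call that ended under 5 of 17 alternatives (adjusted p up to 0.0963), and the NPC difference of 0.06 ± 0.0437 did not pass (adjusted p = 0.284).

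The W20 effect differed between stages for 15 of the 36 genes, of which 5 kept the call with spike-in scaling (Irgm1, Irf1, Psmb10, Ifit1 and Ifit3) and 9 without EGFP NPC replicate 2 or without EGFP 72 h replicate 1. The difference of the W20 effects, 72 h minus NPC, was negative and passed for 10 genes and positive and passed for 5, where 16.8% and 14.1% of all genes did. At 0.5 log2 units or more, 2 genes were negative and 2 positive (5.89% and 5.98% of all genes). The median over the 36 genes was -0.05, beside -0.02 over all genes. Irgm1 had a further drop of -0.59 ± 0.039 with W20 at 72 h (adjusted p = 0.000445), Psmb10 of -0.48 ± 0.044 (adjusted p = 0.00114), Ddx58 of -0.45 ± 0.0655 (adjusted p = 0.00528) and Irf1 of -0.42 ± 0.055 (adjusted p = 0.00369). Eif2ak2 and B2m were lower with W20 at 72 h and did not pass in NPC, with differences of the effects of -0.31 ± 0.0546 (adjusted p = 0.00996) and -0.26 ± 0.045 (adjusted p = 0.00943). In the other direction, Ifit1 stood at 1.03 ± 0.216 (adjusted p = 0.0179, and 0.68 with normexp) and Ifit3 at 0.84 ± 0.125 (adjusted p = 0.0057). The call of Ifit1 ended under 3 of 16 alternatives, each of which left out 1 array. Cxcl10 at 0.46 ± 0.0758 (adjusted p = 0.00775) and H2-K1 at 0.34 ± 0.0473 (adjusted p = 0.00465) differed less between W20 and EGFP cells at 72 h than in NPC. Ddx58, Eif2ak2, B2m, Cxcl10 and H2-K1 lost the call with spike-in scaling, and H2-K1 also with the mean of its probes. Igtp, Gbp2, Ifi35, Xaf1 and Trim25 passed with adjusted p from 0.0298 to 0.0471, but of 16 alternatives the call ended under 14 for Igtp, 14 for Trim25, 13 for Gbp2, 11 for Ifi35 and 10 for Xaf1, most left-out arrays among them. The 2 probes of Trim25 differed in sign, and its second probe stood at -0.145 (adjusted p = 0.466 in a fit of every probe). For Iigp1, Psmb9, Oasl2 and Ifi44 the difference of the effects lay between 0.00 and 0.08 with SE from 0.0663 to 0.194, and did not pass (adjusted p = 0.558 or more). The 72 h difference of Psmb9 was -0.46 with normexp, while its NPC difference was -1.02 or lower in every alternative. Its near-equal effects at the 2 stages therefore did not hold with normexp.

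The 36 genes were mostly lower at 72 h than in NPC, whichever protein the cells expressed. With W20, 30 of the 36 fell and 3 rose over the 72 h, where 37.2% of all genes fell and 37.5% rose. With EGFP, 30 fell and 4 rose, where 33.9% fell and 36.1% rose. Changes of at least 0.5 log2 units numbered 23 lower and 2 higher with W20 (19.3% and 18.2% of all genes) and 21 lower and 1 higher with EGFP (16.1% and 15.1%). The medians of 72 h minus NPC were -0.63 with W20 and -0.62 with EGFP, beside 0.01 over all genes with either. Psmb9 fell by 2.62 ± 0.126 (6.13-fold, adjusted p = 9.66e-06) with W20 and fell by 2.62 ± 0.126 (6.14-fold, adjusted p = 1.45e-05) with EGFP. Rsad2 fell by 2.22 ± 0.114 (4.66-fold, adjusted p = 1.23e-05) with W20 and fell by 1.70 ± 0.114 (3.24-fold, adjusted p = 5.15e-05) with EGFP. Iigp1 fell by 1.72 ± 0.1 (3.3-fold, adjusted p = 2.09e-05) with W20 and fell by 1.80 ± 0.1 (3.48-fold, adjusted p = 2.49e-05) with EGFP. Tap2 fell by 1.499 ± 0.0926 (2.83-fold, adjusted p = 2.66e-05) with W20 and fell by 1.73 ± 0.0926 (3.32-fold, adjusted p = 2.12e-05) with EGFP. Both kinds of cells showed these changes, without overlap between the stages. With normexp the changes with W20 were -1.46 for Psmb9, -1.06 for Rsad2 and -0.65 for Tap2, and that of Rsad2 with EGFP was -0.84. Rsad2 was well above background on 1 of 2 W20 arrays at 72 h. The used probe of Psmb8 was well above background on the NPC arrays alone and entered the test through them, so its change over the 72 h is no independent result. It was at least 1.72-fold lower at 72 h with W20 and at least 2.90-fold lower with EGFP.

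Irgm1 fell by 1.59 ± 0.0276 (3-fold, adjusted p = 3.11e-07) over the 72 h with W20 and fell by 1.00 ± 0.0276 (2-fold, adjusted p = 2.25e-06) with EGFP. Irf1 fell by 1.32 ± 0.0389 (2.5-fold, adjusted p = 1.52e-06) with W20 and fell by 0.91 ± 0.0389 (1.87-fold, adjusted p = 9.44e-06) with EGFP. Ifit3 fell by 0.50 ± 0.0881 (1.42-fold, adjusted p = 0.00269) with W20 (-0.32 with normexp) and fell by 1.34 ± 0.0881 (2.53-fold, adjusted p = 4.75e-05) with EGFP. Ifit1 fell by 1.13 ± 0.153 (2.19-fold, adjusted p = 0.000969) with EGFP (-0.69 with normexp), and with W20 its difference of -0.11 ± 0.153 did not pass (adjusted p = 0.554). Trim25, Samhd1 and Cxcl10 were higher at 72 h with both proteins. Trim25 rose by 0.67 ± 0.0296 (1.59-fold, adjusted p = 6.74e-06) with W20 and rose by 0.53 ± 0.0296 (1.44-fold, adjusted p = 2.59e-05) with EGFP. Samhd1 rose by 0.42 ± 0.0454 (1.34-fold, adjusted p = 0.000306) with W20 and rose by 0.50 ± 0.0454 (1.41-fold, adjusted p = 0.00018) with EGFP. Cxcl10 rose by 0.67 ± 0.0536 (1.59-fold, adjusted p = 7.88e-05) with W20 and rose by 0.21 ± 0.0536 (1.16-fold, adjusted p = 0.014) with EGFP, the last a call that ended under 3 of 17 alternatives (adjusted p up to 0.0797). Comparisons over the 72 h share no array with each other, and each shares arrays with both comparisons of W20 with EGFP.

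**Figure D4:**
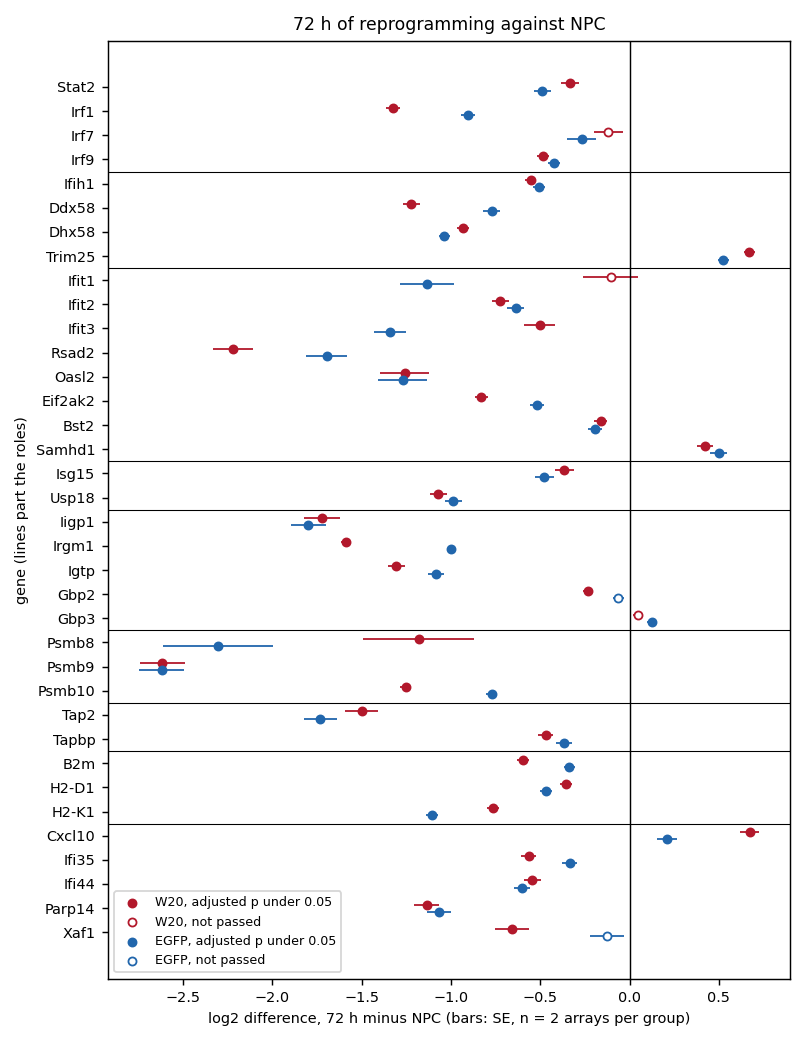
Difference of 72 h minus NPC on the log2 scale with its standard error (2 arrays per group), for W20 (red) and EGFP (blue) cells, with filled points where the adjusted p was under 0.05. Most points lie left of 0, Psmb9 farthest at -2.62 with either protein, and Trim25, Samhd1 and Cxcl10 lie right of 0.

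Other genes of the pathway were read from lists that named them. Of 9 interferon genes, 7 had a probe, and none of their probes was well above background on any array, Ifnb1 and Ifng included. Of 25 tested receptors, kinases and regulators, 12 fell and 6 rose at 72 h, and 11 fell and 3 rose in NPC. Of all genes, 24.3% fell and 28.5% rose at 72 h, and 23.7% fell and 31.8% rose in NPC. The median differences of the 25 were -0.18 and -0.06. The genes named next fell or did not pass, and none of those that rose is among them. Both chains of the type I receptor fell at both stages. Ifnar1 fell by 0.30 ± 0.0382 (1.23-fold, adjusted p = 0.00169) at 72 h and fell by 0.34 ± 0.0382 (1.27-fold, adjusted p = 0.000914) in NPC, and Ifnar2 fell by 0.16 ± 0.0297 and by 0.19 ± 0.0297. Ifngr2, a chain of the interferon gamma receptor, fell by 0.21 ± 0.0432 (1.16-fold, adjusted p = 0.00882) at 72 h and fell by 0.52 ± 0.0432 (1.44-fold, adjusted p = 0.000355) in NPC, while Ifngr1 passed at neither stage. Socs1, a feedback inhibitor of JAK kinases, fell by 0.32 ± 0.0373 (1.25-fold, adjusted p = 0.00121) at 72 h and did not pass in NPC (0.04 ± 0.0373, adjusted p = 0.4).

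Of 30 other interferon-induced genes tested, 22 fell and 1 rose at 72 h, and 17 fell and 6 rose in NPC. The shares of all genes were 24.3% and 28.5% at 72 h, and 23.7% and 31.8% in NPC. Tgtp1, a T-cell GTPase of the same family as Iigp1, fell by 1.54 ± 0.0615 (2.91-fold, adjusted p = 4.88e-05) at 72 h and fell by 0.89 ± 0.0615 (1.85-fold, adjusted p = 0.000213) in NPC. Uba7, the enzyme that activates ISG15, fell by 1.51 ± 0.0809 (2.85-fold, adjusted p = 0.000108) and fell by 0.49 ± 0.0809 (1.41-fold, adjusted p = 0.00366) at the same stages. Trim21, the cytoplasmic antibody receptor, fell by 1.24 ± 0.0309 (2.37-fold, adjusted p = 2.15e-05) and fell by 0.47 ± 0.0309 (1.39-fold, adjusted p = 0.000193). Isg20, an exonuclease, fell by 0.61 ± 0.0409 (1.52-fold, adjusted p = 0.000202) at 72 h and rose by 0.38 ± 0.0409 (1.3-fold, adjusted p = 0.000821) in NPC.

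Of 12 other antigen-processing genes, 10 fell and 1 rose at 72 h, and 6 fell and 2 rose in NPC. The shares of all genes were 24.3% and 28.5% at 72 h, and 23.7% and 31.8% in NPC. Psme1 and Psme2 code for the interferon-induced proteasome activator. Psme1 fell by 0.75 ± 0.027 (1.69-fold, adjusted p = 4.05e-05) at 72 h and fell by 0.25 ± 0.027 (1.19-fold, adjusted p = 0.000777) in NPC, and Psme2 fell by 0.63 ± 0.0319 (1.54-fold, adjusted p = 9.48e-05) and fell by 0.17 ± 0.0319 (1.12-fold, adjusted p = 0.00666). Psme3, the related nuclear activator, rose by 0.37 ± 0.0323 (1.3-fold, adjusted p = 0.000436) at 72 h and rose by 0.29 ± 0.0323 (1.22-fold, adjusted p = 0.000883) in NPC. Psmb5, Psmb6 and Psmb7, the subunits that Psmb8, Psmb9 and Psmb10 replace, all rose in NPC, by 0.15 to 0.28. Psmb5 and Psmb6 also rose at 72 h. Of all genes, 31.8% rose in NPC and 28.5% at 72 h. Of 3 tested MHC class II genes, Cd74, the invariant chain, fell by 1.13 ± 0.127 (2.19-fold, adjusted p = 0.000918) in NPC and none passed at 72 h.

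**Figure D5:**
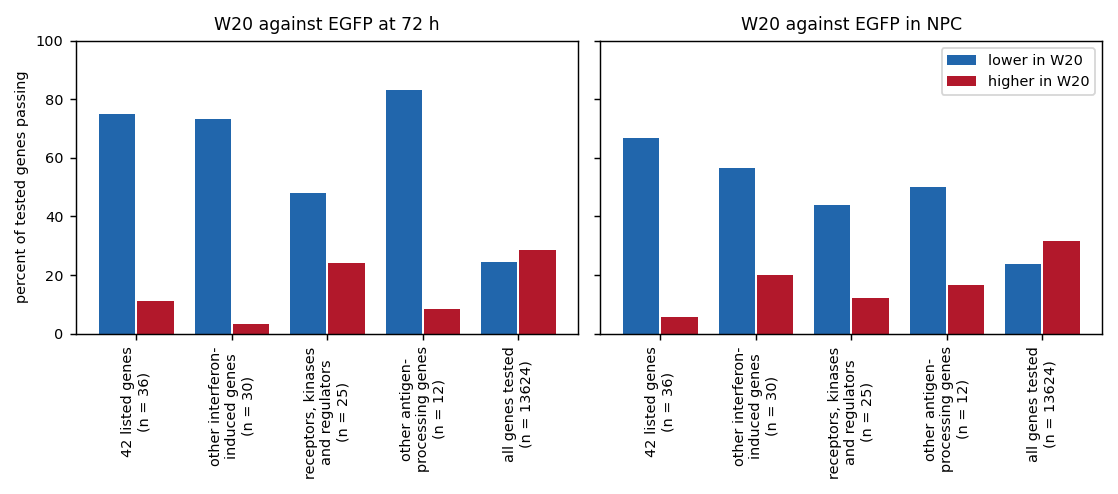
Percent of the tested genes of each list that were lower (blue) or higher (red) in W20 than in EGFP cells with adjusted p under 0.05, at 72 h (left) and in NPC (right), beside all 13624 genes tested. Of the 36 genes described, 75% were lower at 72 h and 66.7% in NPC, beside 24.3% and 23.7% of all genes.

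Genes that fell were found both with and without a core in the promoter entry. Of 15 tested genes with an ISRE core, 9 fell and 2 rose at 72 h, and 10 fell and 1 rose in NPC, beside 24.3% and 28.5% of all genes at 72 h and 23.7% and 31.8% in NPC. Of 8 with a GAS core, 5 fell and 2 rose at 72 h, and 2 fell and 1 rose in NPC, where the share that fell lay near the 23.7% of all genes. Of 11 with neither, 10 fell and 0 rose at 72 h, and 8 fell and 0 rose in NPC, Psmb9 and Tapbp among them. The search took exact letters within the entry, so these genes may hold a variant of a core or a core farther off. Rsad2, whose entry holds an ISRE core, rose, and Gbp2 and Irgm1, whose entries hold one too, fell.

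Markers of other cell types were read beside these levels, and in bulk RNA fewer cells of a type and less RNA per cell cannot be told apart. Of 10 immune cell markers, Ptprc, Aif1, Itgam, Cx3cr1 and Tyrobp were well above background on 0 of 8 arrays and Csf1r on 1, and none of the 3 tested passed in W20 against EGFP. The summed signal of that list, in multiples of the array's 75th percentile, was 0.269 and 0.274 in W20 cells at 72 h, against 0.251 and 0.274 in EGFP cells at 72 h. In NPC it was 0.323 and 0.332 with W20, against 0.301 and 0.322 with EGFP. Of 8 endothelial markers, 3 were tested, and Pecam1, Cdh5, Tie1 and Emcn were well above background on 0 of 8 arrays. Their summed signal was 0.209 and 0.195 in W20 cells at 72 h, against 0.172 and 0.172 in EGFP cells at 72 h, and 0.0362 and 0.0379 in W20 NPC, against 0.0508 and 0.0661 in EGFP NPC. Over the 72 h, 2 of the 3 rose with either protein, where 37.5% of all genes rose with W20 and 36.1% with EGFP. The 3 were Kdr, Tek and Vwf, well above background on at most 4, 3 and 5 of 8 arrays. Such genes may have entered the test through the stage where they were high, so their changes over the 72 h are no independent result. Most fibroblast and mesenchymal markers fell with W20 too, but less at 72 h than in NPC. With W20 against EGFP, 7 of 8 fell at 72 h and 8 in NPC (24.3% and 23.7% of all genes), with medians of -0.76 and -1.30. The difference of the W20 effects was positive and passed for 5 and negative for 1, with a median of 0.71. For the 36 genes that median was -0.05. Over the 72 h, 5 of 8 fell and 2 rose with W20, where 37.2% and 37.5% of all genes did. With EGFP, 5 fell and 1 rose, where 33.9% and 36.1% did. Their summed signal was 89.6 and 92.4 in W20 cells at 72 h, against 135 and 138 in EGFP cells at 72 h, and 102 and 99.3 in W20 NPC, against 148 and 168 in EGFP NPC. The part of these lists in the differences of the interferon and antigen presentation genes was not tested. Of 9 tested neural progenitor markers, 1 fell and 1 rose at 72 h, where 24.3% and 28.5% of all genes did. In NPC 2 fell and 1 rose, where 23.7% and 31.8% did. The neural progenitor list summed to 143 and 137 in W20 cells at 72 h, against 136 and 154 in EGFP cells at 72 h. In NPC it summed to 139 and 152 with W20, against 124 and 135 with EGFP.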

How the data were processed

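Total RNA of 8 samples was labelled with Cy3 and hybridised to Agilent whole mouse genome arrays, per the labels' protocols. Each deposited scanner file gives linear spot intensities that, per the file headers, Agilent Feature Extraction 10.7.3.1 wrote. Its processed signal, background-corrected per the file headers, was log2-transformed and set against the 75th percentile of the array (826.5 to 938 intensity units). Saturated spots were absent, outlier spots were left out, and spots of a probe were averaged. The deposited value table gives log2 values processed by the authors, whose centring is not given in the sources used here. Its 4 NPC columns equalled their own arrays within 0.01 after a constant shift, and its 4 columns of 72 h did not and were not used. It served as an alternative in NPC only. For the other background correction (normexp, offset 50) the median signal took the place of the mean, which the columns used do not hold.

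Of 41174 probes, 27584 were named through RefSeq accessions (GRCm38.p6). The brightest kept probe of a gene was used, and 13 of the 36 tested genes had several. One model of the 4 group means over all 8 arrays was fitted with limma 3.58.1 in R 4.3.3 (4 residual and 1.75 prior degrees of freedom), with two-sided Benjamini-Hochberg adjustment over 13624 genes and a threshold of 0.05, in 5 comparisons. A fold written as at least sets the mean of the bright group against a bound for the dim one, which on each array is the probe's signal or the smallest signal well above background, whichever is higher. Values of every array are printed for genes with a called W20 difference of at least 0.5 log2 units at either stage, for genes called in the difference of the W20 effects, and for the 6 largest changes over 72 h. The members, lists and rules were chosen with earlier results of these data known. Alternatives changed the scaling, background correction, filter, choice of probe, arrays fitted and replicate block, or left out each array. With 2 arrays per group, their number limits the precision. Whether the replicate numbers pair the samples is not known here, and the main fit did not pair them. The deviations of same-numbered arrays correlated from -0.183 to 0.176, which cannot decide it, since paired samples may share little. One gene of the other pathway lists is not reported here.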

Additional observations from a re-analysis of the deposited data

Results flagged for a closer look

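The W20 effect, W20 minus EGFP, was tested for a difference between the stages (72 h minus NPC, limma interaction contrast, adjusted over all 13624 genes), and 15 of the 36 genes passed. The fit has 2 arrays per group.

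The difference was negative for 10 genes. It was -0.59 for Irgm1, -0.53 for Xaf1, -0.48 for Psmb10, -0.45 for Ddx58, -0.419 for Irf1, -0.311 for Eif2ak2, -0.26 for B2m, -0.23 for Ifi35, -0.223 for Igtp and -0.169 for Gbp2, on the log2 scale. It was positive for 5 genes, at 0.146 for Trim25, 0.337 for H2-K1, 0.463 for Cxcl10, 0.837 for Ifit3 and 1.03 for Ifit1. The second probe of Trim25 had the other sign (-0.145) and did not pass. Of the 15 calls, 4 held in every alternative that was run, and 11 ended in at least 1, most of these with spike-in scaling.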

How the results depend on the processing

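Of the 36 genes' calls, 19 of 26 in W20 against EGFP NPC and 22 of 31 at 72 h held in every alternative that was run, as did 31 of 33 over the 72 h with W20, 29 of 34 with EGFP and 4 of 15 in the difference of the W20 effects. Requiring 0.5 log2 units left 14 lower and 1 higher at 72 h, 11 lower and 1 higher in NPC, 2 lower and 2 higher in the difference of the effects, and 1 higher over the 72 h with EGFP. With spike-in scaling 3 fell and 2 rose in the difference of the effects, and 2 rose over the 72 h with EGFP. The genes higher with W20 at 72 h numbered 2 with the mean of a gene's probes, 1 with only the 4 arrays of the comparison and 2 with probes well above background on all 8 arrays, which left 1 in NPC. Without the filter on dim probes, 6 were lower in the difference of the effects. The causes were not tested. Leaving out each array gave 24 to 27 lower and 1 to 3 higher at 72 h, 18 to 24 lower and 2 higher in NPC, and 6 to 9 lower and 3 to 5 higher in the difference of the effects. In the change over 72 h it gave 29 to 31 lower and 3 higher with W20, and 29 to 30 lower and 3 to 4 higher with EGFP.

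Psmb8 reversed where its other probe was brighter or was averaged in. At 72 h it stood at -0.359 with the mean of its probes, and ranged from -1.926 to 1.389 over the left-out arrays, below 0 without EGFP NPC replicate 1 (-1.639), W20 NPC replicate 2 (-1.639), or W20 72 h replicate 1 (-1.926) or 2 (-1.352). Its difference of the effects was -1.622 without W20 NPC replicate 2 and -1.626 without W20 72 h replicate 1, the lowest, and 1.59 at the highest.

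The replicate block left 26 lower and 3 higher at 72 h, 24 and 2 in NPC and 7 and 4 in the difference of the effects. Crossed pairing of the NPC arrays, chosen after seeing the data, gave 25 lower and 2 higher. Of all called genes, 53.9% were higher with W20 at 72 h, but 39.7% with spike-in scaling and 64.6% without the filter. In NPC it was 57.2%, but 65.2% with median scaling. A fit with the slide as a block could not be made for 72 h against NPC, and W20 was compared with EGFP within a slide. The signal limits Rsad2 and Psmb8 most, whose levels at 72 h lay near the lowest signal well above background (-5.84 to -5.04).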
